A study of Mus musculus with 6 samples.

Results

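The genes described here encode the granule proteins, enzymes and receptors of eosinophils, basophils and mast cells: Prg2, Prg3, Epx, Mcpt8, Cpa3, Hdc, Ms4a2, Fcer1a, Tpsb2 and Il5ra. They were taken as a list of 10 known products and receptors of these cells, and all 10 are measured among 18193 genes on the arrays. Together they have 13 probe sets (sets of short oligonucleotides that read 1 transcript) of 45037 tested. RNA came from single-cell suspensions of fetal livers (FL) at E14.5, from 3 Pogz-/- embryos (labelled Pogz-KO) and 3 Pogz+/+ embryos (labelled Pogz-WT), with 1 Affymetrix mouse genome array for each liver. All 6 embryos were on a C57BL/6 background after more than 10 generations of backcrossing. The deletion takes away the end of the coding region, and with it the DNA-binding CENPB-type domain, the transposase-like DDE domain and several zinc fingers. It was made in the germ line with β-actin-cre mice and bred to homozygosity from heterozygous parents, so blood cells and the liver cells around them both carry it. The question was which genes differ between FL with and without the zinc-finger protein POGZ.

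Eosinophils, basophils and mast cells are rare cells of the myeloid lineage that store cationic proteins, proteases and histamine in granules and take part in allergy and in defence against parasites. Eosinophil precursors are expanded by interleukin-5 and carry major basic protein and eosinophil peroxidase in their granules. Mast cells and basophils are armed by IgE bound to the high-affinity receptor FcεRI and release histamine and proteases when it is cross-linked. All 3 cell types depend on GATA transcription factors, which read GATA sequences, and in the mouse embryo their progenitors are found in the FL.

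Upstream sequences of these genes are shown because GATA factors are central to all 3 cell types. The 250 bases before the transcription start were searched for GATAA on both strands (TTATC on the printed strand is the same motif). RefSeq promoter sequences (GRCm38.p6) were matched for 8 of the 10 genes, all but Prg2 and Tpsb2, and 5 of them held GATAA (Prg3, Cpa3, Ms4a2, Fcer1a and Il5ra), against 22.6% of all 32851 windows of this length. The C/EBP-type motif TTGCNNAA, searched in the same way, was in 1 of the 8 (Fcer1a), against 9.56% of all windows. The 150 bases just before the start are printed 5′ to 3′ for a pair of eosinophil genes and a pair of mast cell and basophil genes, with GATAA or TTATC in capitals.
Epx, chr11:87875537-87875686, minus strand: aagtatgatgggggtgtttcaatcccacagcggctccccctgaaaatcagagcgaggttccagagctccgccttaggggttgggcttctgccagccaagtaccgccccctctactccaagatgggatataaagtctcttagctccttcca
Prg3, chr2:84988065-84988214, plus strand: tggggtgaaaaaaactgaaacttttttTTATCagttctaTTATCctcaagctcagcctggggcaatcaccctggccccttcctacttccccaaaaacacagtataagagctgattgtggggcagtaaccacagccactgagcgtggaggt
Cpa3, chr3:20242182-20242331, minus strand: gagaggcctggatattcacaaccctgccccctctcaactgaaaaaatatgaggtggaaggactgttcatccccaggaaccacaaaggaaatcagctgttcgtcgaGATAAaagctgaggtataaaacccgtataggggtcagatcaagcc
Ms4a2, chr19:11623720-11623869, minus strand: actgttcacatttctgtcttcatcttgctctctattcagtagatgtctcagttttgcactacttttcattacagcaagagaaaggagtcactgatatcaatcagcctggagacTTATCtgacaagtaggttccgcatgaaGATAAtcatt
In Prg3 the motifs began 123 and 111 bases before the start, in Cpa3 45 bases before it and in Ms4a2 37 and 10 bases before it, with another 224 bases before it outside the printed stretch. Epx held none in its 250 bases. A match of letters is a description of the sequence and not a binding site.

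Values are given as log2 of the deposited intensity, which is on a linear scale with the same 2% trimmed mean, 150, in every array. The middle probe set of an array had an intensity of 29.7 to 31.6 in the 3 Pogz-/- arrays, against 36.0 to 54.3 in the 3 Pogz+/+ arrays. The brightest of 4 Pogz probe sets measured 9.16, 9.22 and 9.33 in the Pogz-/- arrays and 9.17, 9.03 and 8.95 in the Pogz+/+ arrays, so it was not lower in Pogz-/-. Its log2 fold change was 0.18 with an SE of 0.16 (adjusted p = 0.598) over 6 arrays and 0.25 with an SE of 0.12 (adjusted p = 0.358) over 5 in limma over probe sets, and of the other 3 a single one was lower. Their log2 fold changes over 6 arrays were -0.59, 2.17 and 1.47, and over 5 arrays -0.41, 2.05 and 1.90. For the pair of these that was higher, all Pogz-/- arrays lay above all Pogz+/+ arrays, and limma called none of the 4 on either set of arrays. Whether any of them reads the deleted exons was not established here, so Pogz gives no check of the genotypes and every direction below rests on the labels. Pogz+/+ replicate 1 stood apart, with r = 0.794 to 0.810 across probe sets to each other array, while r was 0.884 to 0.906 between those. The ratio of 3′ to 5′ signal of the β-actin control, which is higher where the RNA or the labelled target is shorter, was 3.72 to 4.09 in Pogz-/- arrays, and 52.3, 5.50 and 6.63 in Pogz+/+ replicates 1, 2 and 3. For the Gapdh control it was 4.87 to 5.08 in Pogz-/- arrays, and 15.3, 7.37 and 9.29 in the Pogz+/+ replicates, so the ratio moved with genotype and its part in the results below was not tested. Comparisons of the 10 genes are therefore given over all 6 arrays and over the 5 arrays without Pogz+/+ replicate 1, each tested with limma (trend and robust, Benjamini-Hochberg adjustment over 18193 genes), and rose and fell are used only of genes with an adjusted p below 0.05. A probe set is called dim where its mean is under the median of all probe sets in both genotypes (4.78 in Pogz-/- and 5.16 in Pogz+/+). Markers of the tissue were present: the erythroid genes Klf1 and Slc4a1 averaged 12.81 and 13.65 in Pogz-/- FL and 13.23 and 14.72 in Pogz+/+ FL, and the hepatoblast gene Afp 13.85 in Pogz-/- FL and 14.80 in Pogz+/+ FL.

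Among the 10 genes, the eosinophil granule genes Prg2 and Epx rose in Pogz-/- FL without Pogz+/+ replicate 1 and none fell. Over all 6 arrays none of the 10 passed the test. At an unadjusted p under 0.05 there were 4 of 10 over 6 arrays (Prg2, Epx, Hdc and Tpsb2), against 17.7% of all genes, and 4 of 10 over 5 arrays (Prg2, Epx, Cpa3 and Tpsb2), against 18.3% of all genes. After adjustment, 2.41% of all genes rose and 2.07% fell over 5 arrays, and 0.0989% rose and 0.022% fell over 6 arrays. Of the genes called over 5 arrays 53.9% were higher in Pogz-/- FL, and 94.9% with the arrays centred on their medians. All Pogz-/- arrays lay above all Pogz+/+ arrays for 2 of the 10 genes (Prg2 and Epx), against 10.8% of all genes, and below them for 3 (Cpa3, Hdc and Tpsb2), against 16.3% of all genes. With median centring over 6 arrays the Cpa3 difference changed sign and the Hdc difference shrank from -0.64 to -0.18. The median log2 fold change of the 10 genes was -0.38 over 6 arrays and -0.32 over 5, beside -0.17 and -0.10 for all genes, with 3 genes higher and 7 lower on both sets of arrays. These directions depend on the scaling: with every array centred on its own median, 6 of the 10 genes were higher over 6 arrays and 5 over 5, and the median of the 10 was 0.08 and -0.05, beside 0.29 and 0.18 for all genes. Fcer1a and Il5ra were dim in both genotypes and Tpsb2 in Pogz-/- alone. In whole FL, fewer cells of a type and less RNA per cell cannot be told apart.

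**Figure D1:**
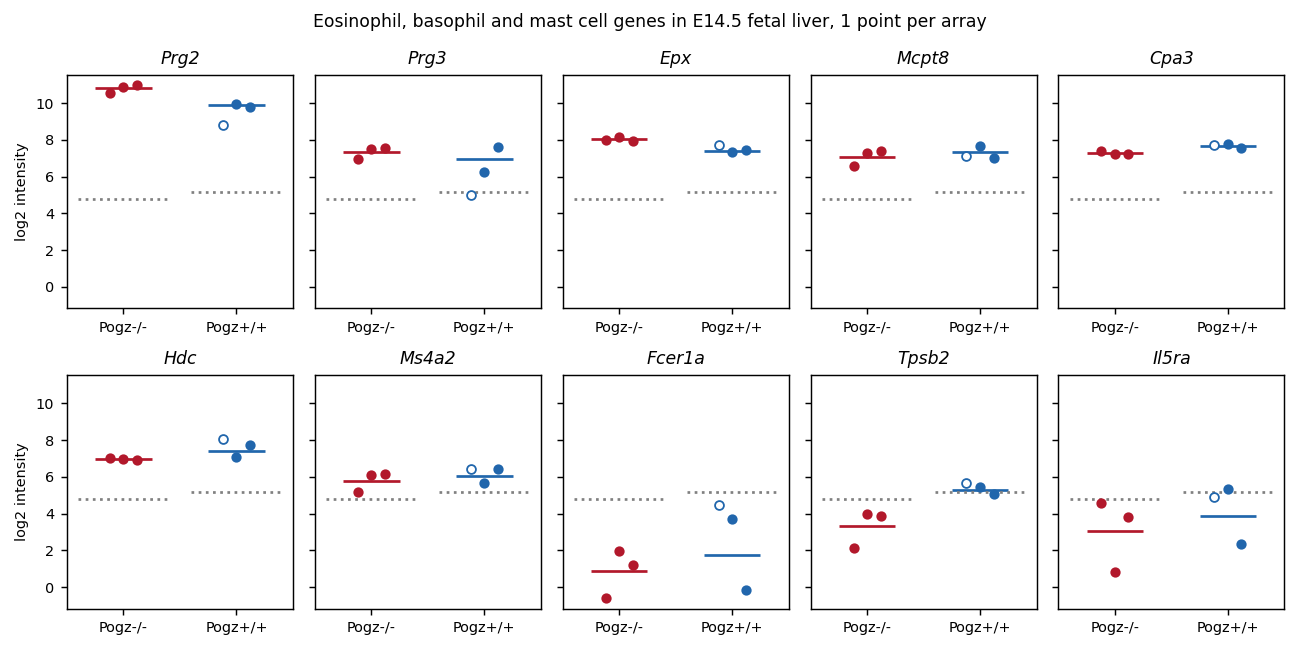
Log2 intensity (y axis) of the brightest probe set of each of the 10 genes, 1 point per array, Pogz-/- left and Pogz+/+ right in each panel. The open circle is Pogz+/+ replicate 1, solid lines are means (Pogz+/+ without replicate 1) and dotted lines are the medians of all probe sets. On this deposited scale Prg2 and Epx lie higher in all Pogz-/- arrays, Cpa3, Hdc and Tpsb2 lower, and Fcer1a and Il5ra are dim and scattered. With median centring over 6 arrays the log2 fold change of Cpa3 turned to 0.05 and that of Hdc shrank to -0.18. Whether the groups still separate after centring is not shown.

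Prg2 encodes eosinophil major basic protein, the cationic protein of the granule core that damages parasites and host cells. Its log2 intensity was 10.57, 10.90 and 10.97 in the Pogz-/- arrays, against 8.82, 9.95 and 9.79 in Pogz+/+ replicates 1, 2 and 3. All Pogz-/- arrays were higher than all Pogz+/+ arrays, and replicate 1 was the lowest of all. The means were 10.81 ± 0.22 in Pogz-/- FL and 9.52 ± 0.61 in Pogz+/+ FL (SD, n = 3 each). The log2 fold change was 1.29 with an SE of 0.27 (adjusted p = 0.0945) over 6 arrays, which did not pass, and 0.94 with an SE of 0.13 (adjusted p = 0.00272) over 5 arrays, a rise of 1.92-fold. Without replicate 1 the Pogz+/+ mean was 9.87 ± 0.11 (SD, n = 2), so that array widened both the difference and the spread. The call was lost in limma without trend and robust (adjusted p = 0.280 over 5 arrays).

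Epx encodes eosinophil peroxidase, the enzyme of the granule matrix that makes hypobromous acid. Its log2 intensity was 8.01, 8.13 and 7.96 in the Pogz-/- arrays, against 7.73, 7.33 and 7.43 in the Pogz+/+ arrays. The groups did not overlap, and here replicate 1 was the highest of the Pogz+/+ arrays. The means were 8.03 ± 0.09 in Pogz-/- FL and 7.49 ± 0.21 in Pogz+/+ FL (SD, n = 3 each), a log2 fold change of 0.54 with an SE of 0.19 (adjusted p = 0.205) over 6 arrays. Over 5 arrays it rose by 0.65 (SE 0.15, adjusted p = 0.0367), or 1.57-fold. Adjusted over all 45037 probe sets instead of genes, the same probe set had an adjusted p of 0.0544 in limma and was no longer called, whereas that of Prg2 was 0.00457. It was not called either without any 1 of the 3 Pogz-/- arrays (adjusted p = 0.0670, 0.139 and 0.108 in limma).

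Prg3, which encodes a homologue of major basic protein and is the next gene to Prg2 on chromosome 2, did not separate the genotypes. It measured 6.94, 7.52 and 7.58 in the Pogz-/- arrays and 5.02, 6.26 and 7.60 in the Pogz+/+ arrays. Pogz+/+ replicate 3 was above every Pogz-/- array and replicate 1 far below them. Its log2 fold change was 1.05 with an SE of 0.53 (adjusted p = 0.318) over 6 arrays and 0.42 with an SE of 0.34 (adjusted p = 0.561) over 5, with limma. Il5ra, the α chain of the interleukin-5 receptor through which eosinophil precursors are expanded, was dim and scattered, at 4.56, 0.80 and 3.79 in the Pogz-/- arrays and 4.92, 5.35 and 2.34 in the Pogz+/+ arrays. Its log2 fold change was -1.15 with an SE of 1.19 (adjusted p = 0.631) over 6 arrays and -0.79 with an SE of 1.30 (adjusted p = 0.805) over 5, so no difference was detectable at this signal.

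Genes of mast cells and basophils were not called in either direction. Cpa3, carboxypeptidase A of mast cell granules, measured 7.37, 7.23 and 7.25 in the Pogz-/- arrays and 7.73, 7.80 and 7.55 in the Pogz+/+ arrays. Every Pogz-/- array was lower, with little spread in either group, the means being 7.28 ± 0.07 in Pogz-/- FL and 7.69 ± 0.13 in Pogz+/+ FL (SD, n = 3 each). Its log2 fold change was -0.41 with an SE of 0.19 (adjusted p = 0.295) over 6 arrays and -0.39 with an SE of 0.17 (adjusted p = 0.261) over 5, and with the arrays centred on their medians it was 0.05 over 6 arrays and -0.12 over 5. Mcpt8, the serine protease that marks mouse basophils, measured 6.56, 7.26 and 7.41 in the Pogz-/- arrays and 7.10, 7.65 and 7.01 in the Pogz+/+ arrays. The groups overlapped, and its log2 fold change was -0.18 with an SE of 0.28 (adjusted p = 0.768) over 6 arrays and -0.25 with an SE of 0.28 (adjusted p = 0.681) over 5. The direction of Mcpt8 turned after median centring, to 0.28 over 6 arrays and 0.020 over 5.

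Hdc, histidine decarboxylase, makes histamine in mast cells and basophils. Its brightest probe set measured 7.03, 6.99 and 6.90 in the Pogz-/- arrays and 8.04, 7.06 and 7.73 in the Pogz+/+ arrays, lower in every Pogz-/- array, although Pogz+/+ replicate 2 was only just above them. The log2 fold change was -0.64 with an SE of 0.26 (adjusted p = 0.251) over 6 arrays and -0.42 with an SE of 0.22 (adjusted p = 0.343) over 5. With the arrays centred on their medians the change of Hdc was -0.18 over 6 arrays and -0.15 over 5. Its dimmer probe set went the other way, at 5.99, 5.86 and 5.87 in the Pogz-/- arrays and 3.08, 5.61 and 5.27 in the Pogz+/+ arrays. All Pogz-/- arrays were then the higher ones, with a log2 fold change of 1.25 with an SE of 0.63 (adjusted p = 0.357) over 6 arrays and 0.46 with an SE of 0.30 (adjusted p = 0.508) over 5, with limma over probe sets. Pogz+/+ replicate 1 was the highest array on one Hdc probe set and the lowest on the other. The design names of both probe sets mark them as able to bind more than 1 transcript, so Hdc has no settled direction here.

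Tpsb2, a tryptase of mast cell granules, had the widest difference of the 10 genes on its brightest probe set but near the dim end of the range. It measured 2.14, 4.00 and 3.85 in the Pogz-/- arrays and 5.64, 5.48 and 5.09 in the Pogz+/+ arrays, so every Pogz-/- array was lower and the Pogz-/- mean of 3.33 was under the median of all probe sets. Its log2 fold change was -2.07 with an SE of 0.71 (adjusted p = 0.198) over 6 arrays and -1.95 with an SE of 0.78 (adjusted p = 0.214) over 5. The other Tpsb2 probe set, dim in both genotypes, measured 4.36, 3.74 and 4.06 in the Pogz-/- arrays and 3.84, 4.90 and 1.87 in the Pogz+/+ arrays, which overlapped, with a log2 fold change of 0.52 with an SE of 0.93 (adjusted p = 0.813) over 6 arrays and 0.67 with an SE of 0.98 (adjusted p = 0.797) over 5. Tpsab1, the neighbouring tryptase gene on chromosome 17, was dim in both genotypes, with a log2 fold change in limma of -0.75 with an SE of 0.68 (adjusted p = 0.580) over 6 arrays and -0.29 with an SE of 0.68 (adjusted p = 0.872) over 5, and cross-hybridisation between the tryptases was not tested.

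**Figure D2:**
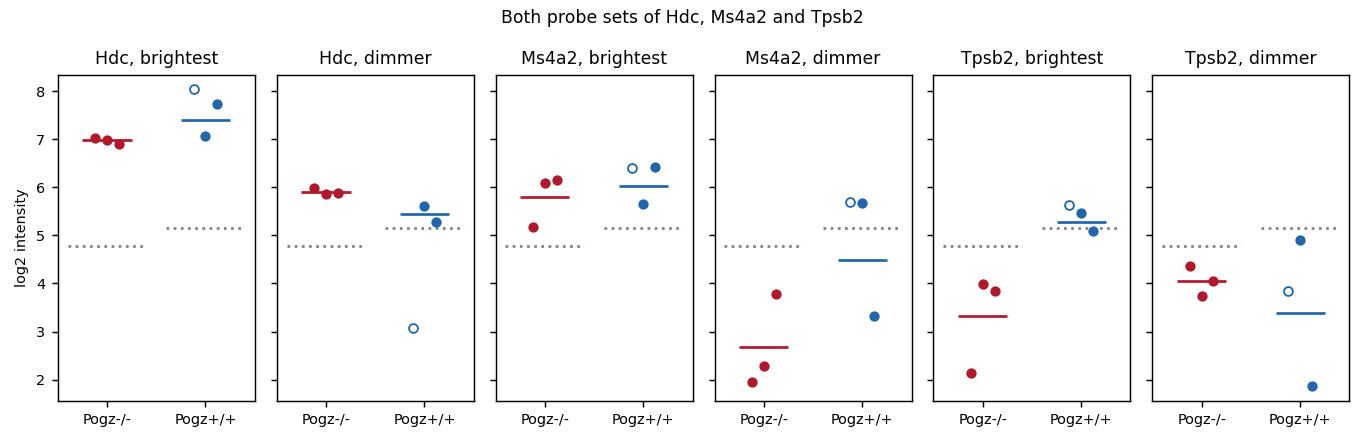
Log2 intensity (y axis) of the brighter and the dimmer probe set of Hdc, Ms4a2 and Tpsb2, 1 point per array, Pogz-/- left and Pogz+/+ right. The open circle is Pogz+/+ replicate 1, solid lines are means (Pogz+/+ without replicate 1) and dotted lines the medians of all probe sets. For Hdc and for Tpsb2 the means of the pair go opposite ways, and only for Ms4a2 are both lower in Pogz-/-.

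The subunits of FcεRI, the IgE receptor of mast cells and basophils, were not called. Ms4a2, its β subunit, measured 5.17, 6.08 and 6.15 in the Pogz-/- arrays and 6.40, 5.64 and 6.43 in the Pogz+/+ arrays, which overlapped, with a log2 fold change of -0.36 with an SE of 0.39 (adjusted p = 0.652) over 6 arrays and -0.24 with an SE of 0.38 (adjusted p = 0.803) over 5, which turned to 0.10 and 0.036 with the arrays centred on their medians. A second Ms4a2 probe set, dim in both genotypes, measured 1.95, 2.29 and 3.79 in the Pogz-/- arrays and 5.69, 5.67 and 3.32 in the Pogz+/+ arrays. The groups overlapped there too, and the log2 fold change was -2.22 with an SE of 0.95 (adjusted p = 0.301) over 6 arrays and -1.82 with an SE of 1.07 (adjusted p = 0.453) over 5, in limma over probe sets. Fcer1a, the α subunit that binds IgE, was dim in both genotypes, at -0.60, 1.97 and 1.18 in the Pogz-/- arrays and 4.47, 3.71 and -0.16 in the Pogz+/+ arrays. Pogz+/+ replicates 1 and 2 were above the rest while replicate 3 was lower than all but Pogz-/- replicate 1. Its log2 fold change was -1.82 with an SE of 1.29 (adjusted p = 0.473) over 6 arrays and -0.92 with an SE of 1.31 (adjusted p = 0.765) over 5, so leaving out Pogz+/+ replicate 1 moved it by more than 1.5 times. Fcer1g, the γ chain that myeloid cells share among several Fc receptors, had a log2 fold change of 0.72 with an SE of 0.25 (adjusted p = 0.198) over 6 arrays and 0.41 with an SE of 0.12 (adjusted p = 0.0963) over 5.

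**Figure D3:**
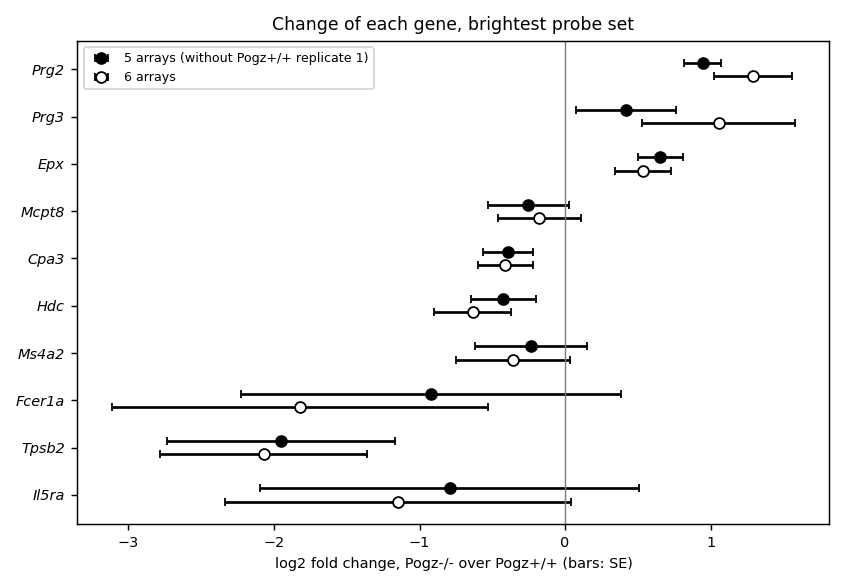
Log2 fold change, Pogz-/- over Pogz+/+ (x axis), of the brightest probe set of each gene, with its standard error from limma. Filled points are over 5 arrays without Pogz+/+ replicate 1 and open points over 6 arrays. Prg2, Prg3 and Epx are to the right of 0 and the other 7 genes to the left on the deposited scale (Mcpt8, Ms4a2 and, over 6 arrays, Cpa3 cross 0 with median centring), with wide bars for the dim genes Fcer1a and Il5ra and for Tpsb2.

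How the 10 genes varied among themselves depended on Pogz+/+ replicate 1. That array was the lowest of the 6 for Prg2 and Prg3 and the highest for Hdc, Fcer1a and Tpsb2. Within Pogz-/- arrays the range of log2 values was narrowest for Hdc (0.13) and Cpa3 (0.13) and widest for Il5ra (3.76). Within Pogz+/+ arrays it was narrowest for Cpa3 (0.25) and widest for Fcer1a (4.64). Without replicate 1 the Pogz+/+ pair lay closest for Epx (0.10) and Prg2 (0.16), ahead of Cpa3 (0.25), and farthest apart for Fcer1a (3.87). Profiles were compared among genes that are not dim, with log2 values centred on each gene over the 6 arrays. The 5 that differed least from Prg2 were Piga, Abce1, Kctd10, Uso1 and Prpf39, with a root mean square difference of 0.0637 to 0.145. All 5 were also lowest in Pogz+/+ replicate 1, which follows from choosing them by closeness to Prg2. For Cpa3 they were Mrps6, Pmm2, Dynll1, Gprasp1 and Oosp3 (0.0512 to 0.0574). None of these 10 genes was among the related genes described next.

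Other genes of these cell types were taken as lists of granule proteins and lipid mediator enzymes, receptors, ligands and transcription factors, of which 54 of 66 are measured and 21 are dim. Over 5 arrays 3 of the 54 rose and none fell, against 2.41% and 2.07% of all genes, and over 6 arrays limma called none. The median log2 fold change of the 54 was 0.14 over 5 arrays and -0.02 over 6. Values of named genes in these lists are over 5 arrays, and for the genes that rose the value over 6 arrays, where none was called, is added. Of 13 granule and lipid mediator genes, 8 were dim and 1 rose over 5 arrays: Srgn, serglycin, the proteoglycan that packs granule contents in many blood cells, rose by 0.43 (SE 0.09, adjusted p = 0.0246; 0.48 with adjusted p = 0.165 over 6). It averaged 11.48 ± 0.09 in Pogz-/- FL and 11.00 ± 0.12 in Pogz+/+ FL (SD, n = 3 each). Alox5 and Alox15, lipoxygenases of leukotriene and related lipid synthesis, had log2 fold changes of -0.28 with an SE of 0.23 (adjusted p = 0.548) and 0.53 with an SE of 0.32 (adjusted p = 0.413), and Slc18a2, the vesicular transporter that loads histamine into granules, 0.22 with an SE of 0.46 (adjusted p = 0.849).

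Of 14 receptor genes, Kit rose over 5 arrays, by 0.91 (SE 0.13, adjusted p = 0.00421; 1.28 with adjusted p = 0.104 over 6), and none fell. KIT is the receptor for stem cell factor on mast cells, and in FL also on hematopoietic progenitors. Csf2rb, the β chain shared by the receptors for interleukin-3, interleukin-5 and GM-CSF, had a log2 fold change of -0.06 with an SE of 0.15 (adjusted p = 0.884), and Itga2b, an integrin of megakaryocytes and progenitors, 0.02 with an SE of 0.15 (adjusted p = 0.966). The eosinophil receptor genes did not rise: Siglecf had -0.03 with an SE of 0.31 (adjusted p = 0.979). Ccr3, which is dim, had -2.07 with an SE of 1.11 (adjusted p = 0.351), all Pogz-/- arrays being the lower ones. Of 10 ligand genes, 7 were dim and none was called on either set of arrays. Kitl, stem cell factor itself, had a log2 fold change of 0.34 with an SE of 0.43 (adjusted p = 0.734), the eosinophil chemoattractant gene Ccl24 0.38 with an SE of 0.57 (adjusted p = 0.781) and Il4 0.46 with an SE of 0.69 (adjusted p = 0.781). Of 17 transcription factor genes, Ikzf1, Ikaros of the lymphoid and myeloid lineages, rose by 0.44 (SE 0.10, adjusted p = 0.0382; 0.56 with adjusted p = 0.155 over 6). Gata1, which is required for eosinophils and for red cells, was 11.11, 11.16 and 11.21 in the Pogz-/- arrays and 11.35, 11.20 and 11.32 in the Pogz+/+ arrays, with a log2 fold change of -0.10 with an SE of 0.09 (adjusted p = 0.590). For its partner Zfpm1 the log2 fold change was -0.16 with an SE of 0.09 (adjusted p = 0.378) and for Tal1 -0.22 with an SE of 0.08 (adjusted p = 0.147), all from limma over 5 arrays. Gata1, Zfpm1 and Tal1 are also factors of the erythroid lineage. Gata2, the other GATA factor of the list, had a log2 fold change in limma of -0.43 with an SE of 0.16 (adjusted p = 0.166) over 5 arrays. Over 6 arrays it was -0.32 with an SE of 0.19 (adjusted p = 0.385), and the groups overlapped. Of the 17 factors 10 were higher and 7 lower over 5 arrays. Gfi1 and Cebpb, higher in all Pogz-/- arrays, were not called either. Over 5 arrays limma gave Gfi1 0.75 with an SE of 0.21 (adjusted p = 0.0701) and Cebpb 0.44 with an SE of 0.12 (adjusted p = 0.0685).

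**Figure D4:**
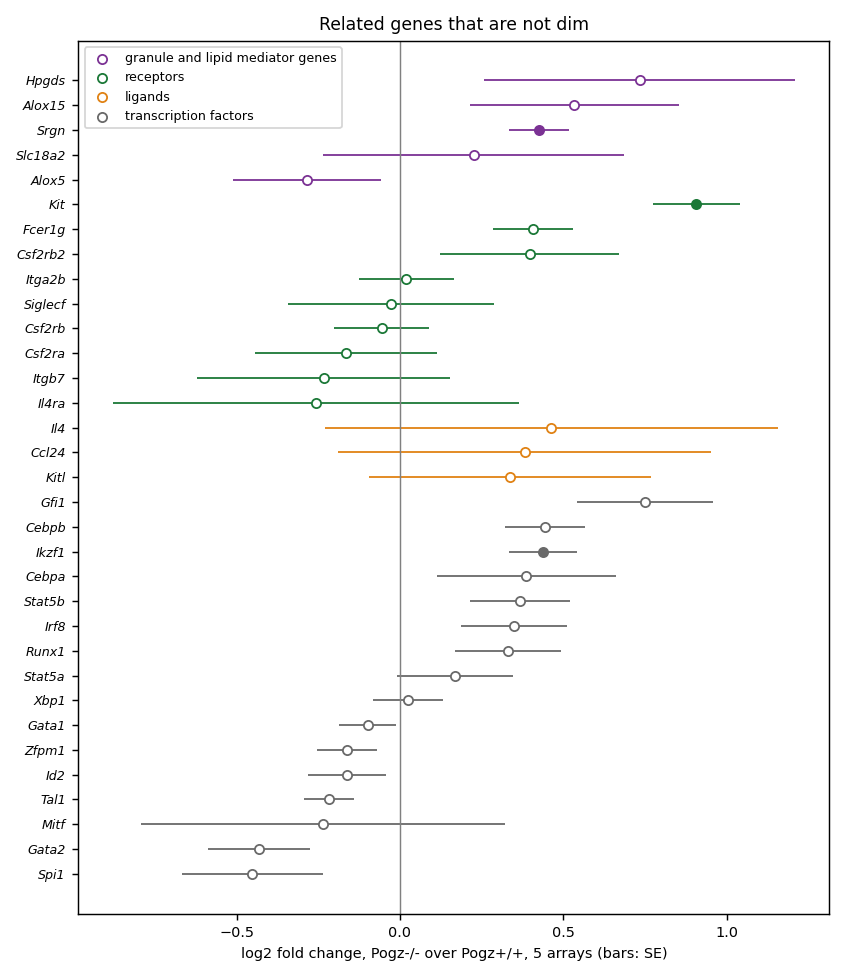
Log2 fold change, Pogz-/- over Pogz+/+ (x axis), over 5 arrays, of the related genes that are not dim, with standard errors from limma, coloured by list. Filled points passed an adjusted p of 0.05: Srgn, Kit and Ikzf1.

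Markers of neutrophils, the other main granulocytes, were partly higher in Pogz-/- FL as well. Of 12 neutrophil genes, none of them dim, 4 rose over 5 arrays (Ctsg, Ltf, Camp and Lcn2) and 1 over 6 (Camp), and none fell. Of all genes 2.41% rose over 5 arrays and 0.0989% over 6. All Pogz-/- arrays lay above all Pogz+/+ arrays for 4 of the 12, against 10.8% of all genes. They lay below them for 1 of the 12, S100a8, against 16.3% of all genes. The log2 fold change of S100a8 in limma was -0.57 (adjusted p = 0.249) over 6 arrays and -0.26 (adjusted p = 0.0964) over 5. The median log2 fold change of the 12 neutrophil genes was 0.26 over 5 arrays. Their summed intensity was 50146 to 57524 in Pogz-/- arrays and 49528 to 85967 in Pogz+/+ arrays, with replicate 1 the highest. Of 10 macrophage genes and 7 megakaryocyte genes none was called on either set of arrays. The summed intensity of the macrophage genes was nonetheless lower in all Pogz-/- arrays (3375 to 4518, against 4705 to 5710 in Pogz+/+ arrays). This sum leans on Csf1r, the brightest of them, which was itself lower in all Pogz-/- arrays. The median log2 fold change of the 10 macrophage genes was -0.03 over 6 arrays and -0.05 over 5, with 4 higher and 6 lower on both. The summed intensity of the megakaryocyte genes overlapped (3735 to 4638, against 4468 to 4830). Of 10 listed erythroid genes 5 are measured. The only globin gene among them, Hba-a1, averaged just 3.69 in Pogz-/- FL and 5.53 in Pogz+/+ FL. Of these 5 erythroid genes 3 fell over 5 arrays (Slc4a1, Alas2 and Klf1), and of 8 hepatocyte genes 1 fell (Afp), against 2.07% of all genes. The summed intensity of the erythroid genes was 28092 to 30529 in Pogz-/- arrays and 42400.4 to 66073 in Pogz+/+ arrays. Among 5 T and NK cell genes Zap70 fell, and of 6 B cell genes none was called. Summed intensities were also lower in all Pogz-/- arrays for the hepatocyte genes (16994 to 27109, against 27568 to 50635 in Pogz+/+ arrays). The same held for T and NK cell genes (245 to 303, against 438 to 864) and B cell genes (195 to 276, against 308 to 557). These sums lean on the brightest gene: Slc4a1 for erythroid, Afp for hepatocyte and Zap70 for T and NK cell genes. Of the 8 hepatocyte genes 2 were higher on both sets of arrays and 6 lower. Alb was among the higher, with a log2 fold change in limma of 0.41 with an SE of 0.39 (adjusted p = 0.654) over 5 arrays. Of the 5 T and NK cell genes 3 were dim. The part of these shifts in the higher Prg2 and Epx signals was not tested.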

How the data were processed

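For each of 3 Pogz-/- and 3 Pogz+/+ FL, biotinylated target was prepared out of 100 ng RNA with a 3′ in vitro transcription kit and read on 1 Affymetrix array. The authors computed the deposited intensity with Expression Console, whose version and settings were not given in the sources used here. Its values are linear, above 0 and scaled to one trimmed mean, hold no detection calls and were not quantile normalized. Log2 was taken without a pseudocount. After 64 controls were left out, 45037 probe sets remained, of which 34945 name 1 gene, 932 several and 9160 none. Each of 18193 genes is represented by the probe set that is brightest on average over the 6 arrays.

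Genotype was tested with limma 3.58.1 in R 4.3.3 (lmFit, eBayes with trend and robust, two-sided, Benjamini-Hochberg adjustment over all genes, or over all probe sets for the dimmer ones), because the spread depends on the level. The members, lists, tests and named genes were chosen with earlier results of these data known. Named are the 10 genes, the related genes called on either set of arrays with the 3 brightest others of each list, and the 5 genes nearest to Prg2 and to Cpa3 in profile among those not dim. Marker genes that were called were named after their values were seen, as were Siglecf, Ccr3, Gata2, Gfi1, Cebpb, S100a8, Csf1r, Alb and Hba-a1. Alternatives were quantile normalization, median centring, limma without trend and robust, a filter on dim genes, the mean of all probe sets of a gene, the methods' t-test, a 1.5-fold threshold, the replicate number as a block and leaving out each array. The calculations were tested on simulated data. The number of arrays limits the precision. Protein sequences were not used here.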

Additional observations from a re-analysis of the deposited data

How the results depend on the processing

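The rise of Prg2 over 5 arrays kept its direction under every alternative run, and its call was lost with limma without trend and robust (adjusted p = 0.280) and with the methods' t-test after adjustment (adjusted p = 0.228). That of Epx was also lost after quantile normalization (adjusted p = 0.0566), with the mean of all probe sets of a gene (0.0667) and without any 1 of the Pogz-/- arrays (0.0670, 0.139 and 0.108). Thus 1 of the 10 genes was called over 5 arrays after quantile normalization and with the mean of probe sets, and 0 by plain limma or the t-test, beside 2. Leaving out each array in turn from 6 gave 0 to 2 called members, 0 to 3 called related genes and 0 to 815 called genes. The highest counts were those without Pogz+/+ replicate 1. Leaving out each Pogz-/- array in turn from 5 gave 1 called member, 1 to 3 related genes and 183 to 796 genes. Neither remaining Pogz+/+ array was left out from 5. The 3 related genes called over 5 arrays became 9 after median centring, 5 with the filter on dim genes, 1 at 1.5-fold, and 0 with plain limma, the t-test or the mean of probe sets.

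Counts over all genes were 22 over 6 arrays and 815 over 5. They were 9 after quantile normalization, 4 after median centring, 5 with the mean of probe sets, 1 with the t-test and 0 with plain limma over 6 arrays. Over 5 arrays they were 679 after quantile normalization, 1944 after median centring, 185 with the mean of probe sets, 497 at 1.5-fold, 2 with the t-test and 0 with plain limma. Over all genes the median log2 difference was -0.10 as deposited and 0.18 after median centring over 5 arrays (-0.17 and 0.29 over 6), and the share of calls that were higher was 53.9% and 94.9%. Median centring turned the direction over 6 arrays of Mcpt8 (0.28), Cpa3 (0.050) and Ms4a2 (0.10), and over 5 arrays of Mcpt8 (0.020) and Ms4a2 (0.036); the median of the 10 genes was then 0.08 over 6 arrays and -0.05 over 5. The mean of both probe sets turned Hdc to 0.31 over 6 arrays and 0.019 over 5. Leaving out each array in turn from 6 gave Mcpt8 -0.35 to 0.081, positive without Pogz-/- replicate 1 or Pogz+/+ replicate 2 (0.019). Leaving out each Pogz-/- array in turn from 5 gave Mcpt8 -0.42 to 0.0059, Ms4a2 -0.41 to 0.078 and Il5ra -1.55 to 0.33. These were positive for Mcpt8 and Ms4a2 without Pogz-/- replicate 1 and for Il5ra without Pogz-/- replicate 2. No cause of these shifts was tested.

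Same-numbered embryos were not treated as pairs in the main test. Their deviations from the group means correlated at r = 0.0078, -0.0044 and -0.0050 for the 3 pairs. Taken over all probe sets, dim ones included, this measure cannot show whether they shared a litter or batch. With the replicate number as a block, 1 member (Prg2, adjusted p = 0.0257) and 65 genes were called over 6 arrays. Over 5 arrays Pogz-/- replicate 1 is alone in its block, so the block gives the same fold changes as leaving that array out. There 1 member was called, beside 1135 of all genes (Epx had an adjusted p of 0.0547 in limma), and Mcpt8 (0.0059) and Ms4a2 (0.078) turned direction. Dim signal limits Fcer1a, Il5ra and Tpsb2, whose standard errors were the widest of the 10 genes.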
